A study of Bos taurus with 16 samples.

Results

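Interferon-stimulated and antiviral genes were followed as a set of 43 genes, chosen by gene name from the interferon pathway and covering receptors and kinases (4), transcription factors (6), RNA sensors and RNA-binding enzymes (6), ISG15 and its conjugation (6), antiviral effectors (11) and other interferon-induced genes (10). Matching by name found 41 of the 43 among the 38959 genes of the first blastocyst table and the 37429 of the second, and 42 among the 28303 of the bovine embryonic stem cell (bESC) table. IFIT1 in the blastocysts and BST2 in any table were not matched and are not analysed here.

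Type I interferons bind a receptor made of IFNAR1 and IFNAR2, and the attached kinases JAK1 and TYK2 then activate STAT2. With IRF9 it is part of the complex that switches on interferon-stimulated genes, whose products block viral RNA and proteins in the cell. In ruminants the trophectoderm of the preimplantation embryo itself secretes a type I interferon, interferon tau, which signals pregnancy to the mother and induces the same class of genes in the uterus.

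The study cultured bovine in vitro fertilized embryos and bESCs, all wild type, with or without LY2955303 (LY), an inhibitor of retinoic acid receptor gamma. In the first blastocyst experiment, 3 DMSO vehicle controls were set beside 3 LY10 blastocysts, which had received 10 μM LY from the 2-cell stage. In the second, cell2_LY (2 blastocysts, LY from the 2-cell stage), cell16_LY (2 blastocysts, LY from the 16-cell stage) and LY_DMSO (2 blastocysts, taken here as the vehicle control of both) were profiled, and the labels give no LY concentration for them. By the study's description, each of the 12 blastocyst libraries came from 1 embryo at day 8, by SMART-seq. The bESC libraries were 2 of bESC_LY, treated with 10 μM LY for 3 days, and 2 of bESC_tifx, the controls in TiFX medium on mouse feeder cells. The labels of bESC_tifx name only the medium, whereas the paper speaks of a DMSO control. Nothing says that the bESC libraries came from separate cultures, so their p-values measure only the spread between these samples.

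Levels are given as normalized counts (reads of a gene scaled to a common library size within a table) and as FPKM (reads per kilobase of gene, scaled to a library size set by the authors), which alone was used to set genes beside each other. Reads on genes per library ranged from 7905768 to 15137567 in the first blastocyst experiment, from 11336091 to 17343140 in the second, and from 29055323 to 31230432 in the bESCs. A gene entered the tests at a mean of at least 10 normalized counts, which 29 members reached in the first blastocyst experiment, 24 in the second and 33 in the bESCs. A gene is called, and is said to have risen or fallen, at an unadjusted limma p under 0.05 with an absolute log2 fold change over 1. With this filter and all libraries included, no member reached an adjusted p under 0.05 by limma in any of the 5 comparisons. With no filter on low counts HERC6 did so in LY10 against DMSO (adjusted p = 0.0448, limma), as did 30 of 27937 genes. The tables bear on embryos as a whole, so fewer cells of a type and less RNA per cell cannot be told apart. Trophectoderm markers (8 of 8) and epiblast markers (7 of 7) were detected in every blastocyst, and epiblast markers summed to between 2458.5 and 2597.8 FPKM in the bESCs.

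Members of every role were detected in the vehicle-treated blastocysts, at levels that differed widely between genes. In the DMSO embryos the highest members by mean FPKM were IFI6 (25.4 ± 43.7, SD, n = 3), IRF3 (13.3 ± 3.32), MX1 (7.14 ± 5.60), IFI35 (6.87 ± 2.86) and EPSTI1 (6.36 ± 4.34). In the LY_DMSO embryos they were IRF3, IFI35, HERC5, JAK1 and EPSTI1, and in the bESC_tifx cells IRF3, JAK1, ADAR, IFNAR1 and IRF7. IFI6 headed the DMSO list through 1 embryo, and its SD exceeded its mean. The neighbours MX1, IFI35 and EPSTI1 differed in mean FPKM by less than their SDs.

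Receptor levels were unequal. IFNAR1, the first receptor chain, measured 2.86, 2.14 and 2.14 FPKM in the DMSO embryos and 1.61, 1.47 and 1.88 in LY10. In the second experiment it measured 2.64 and 2.60 FPKM in LY_DMSO, 4.66 and 3.19 in cell2_LY, and 4.09 and 4.42 in cell16_LY. The LY10 values lay below those of DMSO and the values of both later LY groups above those of LY_DMSO, without a call. IFNAR2, the second chain, had no reads in 5 of the 6 libraries of the first experiment and reached 0.309 FPKM in DMSO replicate 3, its highest value in any library. Low reads on an annotated gene model were taken as given and were not examined further.

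JAK1, a receptor-bound tyrosine kinase, measured 5.35, 4.16 and 4.57 FPKM in DMSO and 3.33, 3.40 and 6.05 in LY10. In the second experiment its FPKM was 3.92 and 5.65 in LY_DMSO, 5.40 and 3.58 in cell2_LY, and 5.97 and 5.82 in cell16_LY. No comparison called JAK1, and its DMSO and LY10 values overlapped.

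IRF3, the factor that sensors activate to start interferon transcription, measured 11.7, 17.1 and 11.1 FPKM in DMSO and 11.7, 13.5 and 11.4 in LY10. Its FPKM in the second experiment was 14.4 and 19.5 in LY_DMSO, 13.8 and 11.7 in cell2_LY, and 12.1 and 19.7 in cell16_LY. IRF3 was not called either, and its DMSO and LY10 values overlapped.

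IRF7, HERC5, EPSTI1 and ADAR varied among the embryos of the second experiment without a call. IRF7 measured 1.63 and 5.65 FPKM in LY_DMSO, 6.94 and 5.05 in cell2_LY, and 5.45 and 5.51 in cell16_LY. HERC5 measured 13.7 and 4.16 FPKM in LY_DMSO, 9.37 and 1.33 in cell2_LY, and 5.30 and 5.90 in cell16_LY. EPSTI1 measured 2.31 and 6.71 FPKM in LY_DMSO, 2.49 and 2.29 in cell2_LY, and 7.50 and 4.78 in cell16_LY. In these 3 genes the LY_DMSO embryos differed widely from each other, and ADAR, at 2.93 and 1.95 FPKM in LY_DMSO, 3.34 and 2.85 in cell2_LY, and 2.41 and 2.72 in cell16_LY, varied less.

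**Figure D1:**
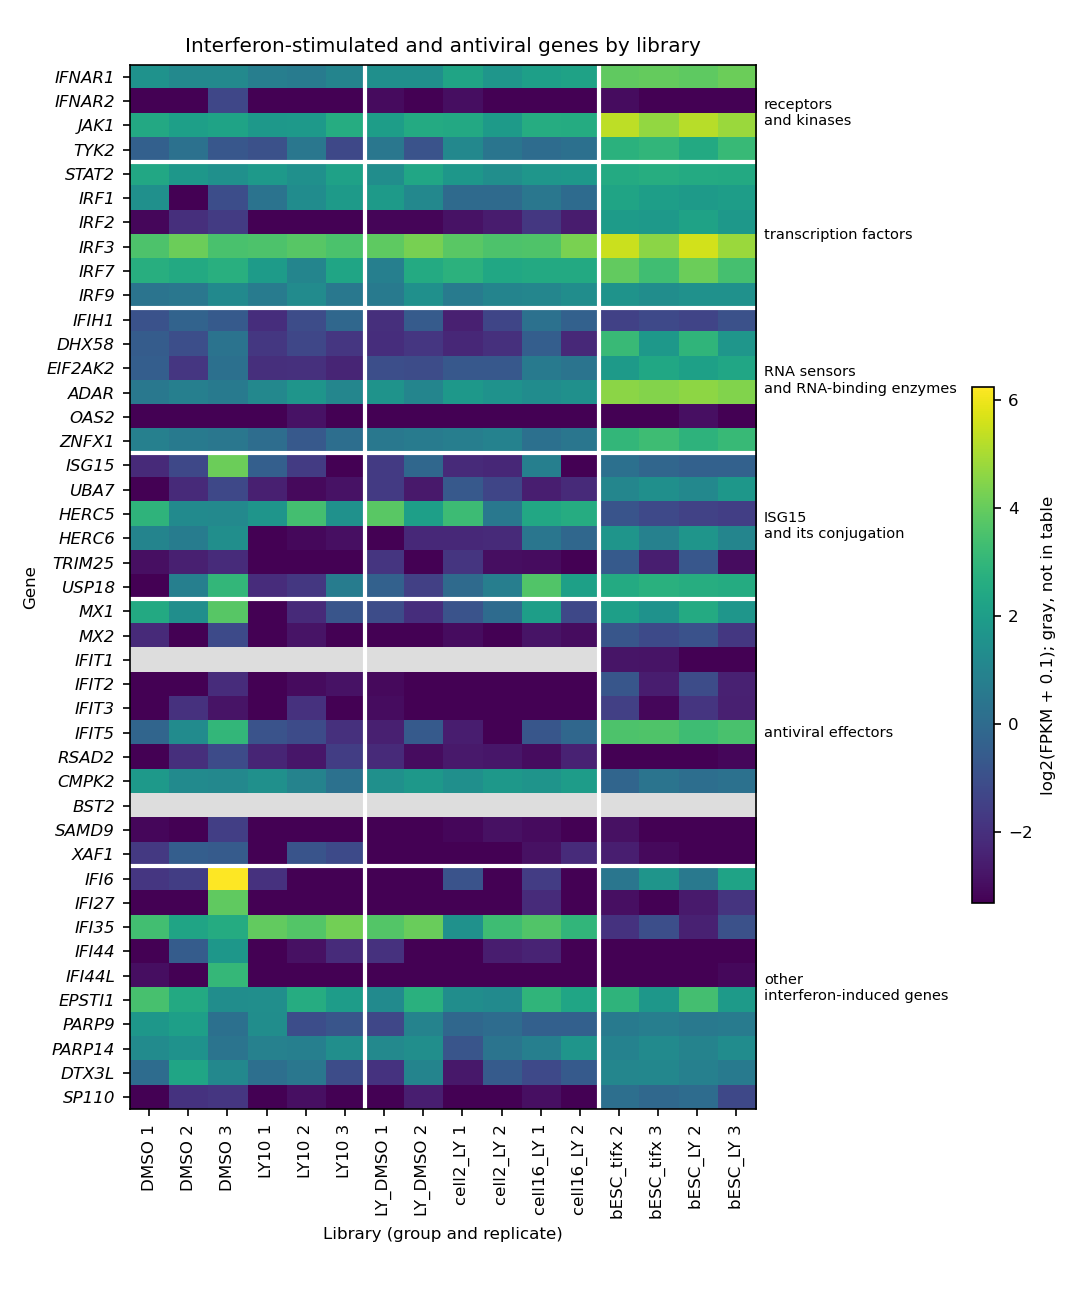
Color shows log2(FPKM + 0.1) of the 43 members (vertical axis, grouped by role) in each of the 16 libraries (horizontal axis), with gray where a table holds no gene of that name. IRF3 and JAK1 are bright throughout, IFI6 reaches 75.8 FPKM in DMSO replicate 3 alone, and HERC6 and MX1 are dark in the 3 LY10 libraries.

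In LY10 blastocysts, HERC6, MX1, IFIT5 and EIF2AK2 were lower than in DMSO blastocysts and IFI35 was higher. Of the 29 members tested, 4 were called lower and 1 higher (13.8% and 3.45%), where 8.51% of all 14249 tested genes were called lower and 6.2% higher. The members' median log2 fold change was -0.84, beside -0.05 over all tested genes. These counts and the median describe the tested members only, since 9 of the 29 (DHX58, HERC6, IFI27, IFI44, IFI44L, IFI6, ISG15, MX1 and USP18) averaged at least 10 normalized counts in DMSO alone, and a member that entered through DMSO had to lie lower in LY10. At an adjusted p under 0.05 (limma) 0.014% of all genes passed and no member did. The smallest member value was that of HERC6, and 5 members had an unadjusted p under 0.05.

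HERC6, a HECT-domain ligase related to the enzyme that attaches ISG15 to proteins, showed the widest gap. It measured 75.3, 60.7 and 101.7 normalized counts in the DMSO embryos and 0, 0.67 and 1.29 in the LY10 embryos. No LY10 embryo approached the DMSO embryos, and the LY10 group held 2 reads of the gene against 251, a ratio of 117.3 (95% exact interval 32.1 to 973.7, counting error only). The fitted log2 fold change was -5.65 ± 0.78 (SE), with an adjusted p of 0.0711 by limma (unadjusted p = 5.84e-05). This fitted value depends on the pseudocount of 1, and leaving out each library in turn gave -5.92 to -5.33.

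MX1, a dynamin-like GTPase that traps viral nucleocapsids, measured 180.1, 84.6 and 440.9 normalized counts in DMSO and 0, 4.02 and 15.5 in LY10. The groups did not overlap, and every DMSO embryo exceeded the highest LY10 embryo. Its log2 fold change was -5.44 ± 1.03, with an adjusted p of 0.0783 by limma, and 18 reads stood against 720 (ratio 37.4, 23.5 to 63.4). Leaving out each library in turn gave -6.40 to -4.38.

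IFIT5, which binds RNA with a triphosphate end, measured 25.6, 79.6 and 265.9 normalized counts in DMSO and 15.0, 12.1 and 5.18 in LY10. Its groups lay apart by a narrower margin, the lowest DMSO embryo being near the highest LY10 embryo. The log2 fold change was -2.93 ± 0.85 (adjusted p = 0.104, limma), and it ranged from -3.75 without DMSO replicate 1 to -2.09 without DMSO replicate 3. EIF2AK2, the double-stranded RNA-activated kinase PKR that halts translation, measured 80.0, 23.9 and 137.8 in DMSO and 19.1, 19.4 and 12.9 in LY10. DMSO replicate 2 lay close to the LY10 embryos. Its log2 fold change of -1.87 ± 0.68 (adjusted p = 0.155, limma) lost its call without DMSO replicate 1 (-1.72), without DMSO replicate 3 (-1.33) or without LY10 replicate 3 (-1.69).

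IFI35, an interferon-induced leucine zipper protein, moved the other way. It measured 127.3, 59.7 and 72.2 normalized counts in DMSO and 192.3, 160.2 and 234.4 in LY10, and no values overlapped. The log2 fold change was 1.23 ± 0.37 (adjusted p = 0.114, limma), and stayed called in each fit with a library left out (1.00 to 1.54). NMI, the partner with which IFI35 forms a complex, is no member of the set. It measured 132.7, 329.3 and 54.7 normalized counts in DMSO and 8.18, 52.3 and 12.9 in LY10, a log2 fold change of -2.83 ± 0.81 (adjusted p = 0.103, limma).

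**Figure D2:**
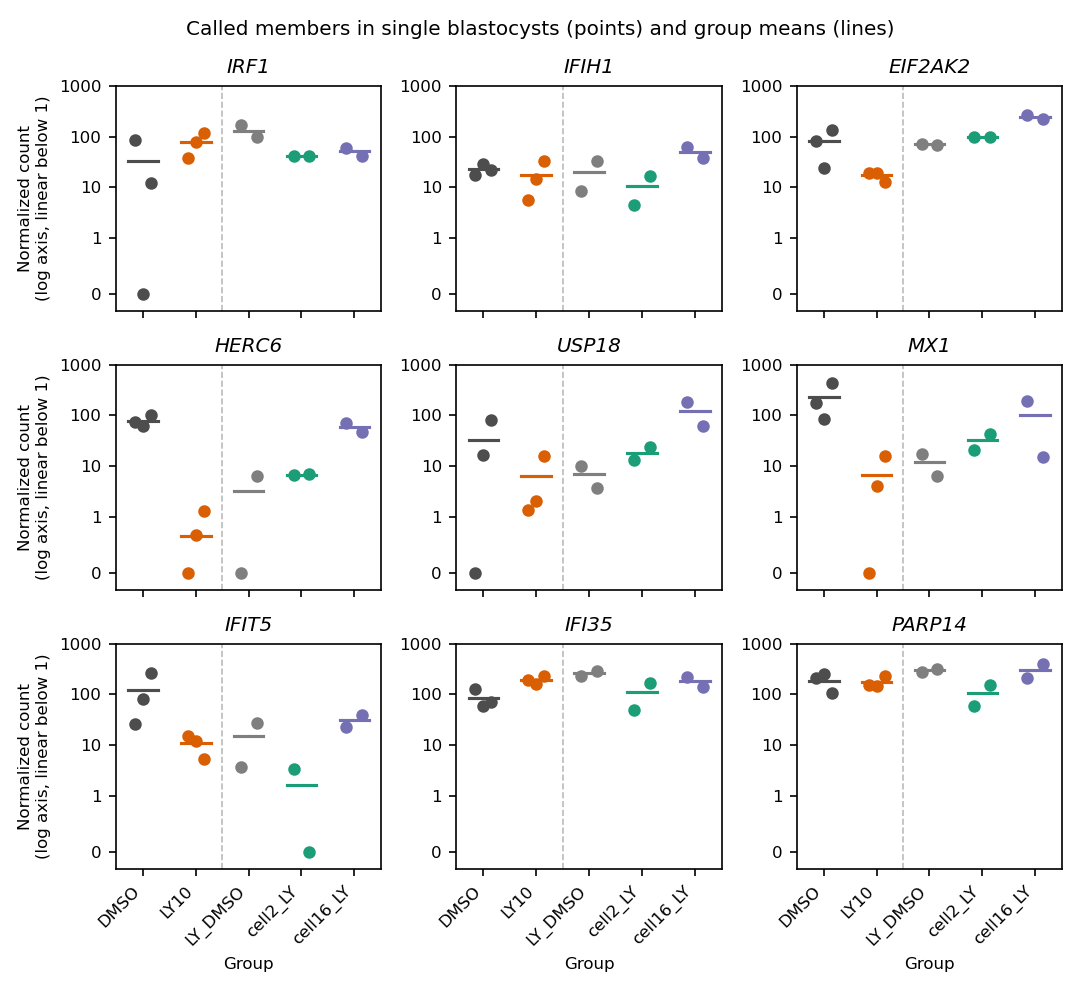
Each panel gives the normalized count (vertical axis, logarithmic above 1 and linear below) of a member called in at least 1 comparison, with 1 point for each blastocyst and a line at each group mean. HERC6 and MX1 lie lower in every LY10 embryo than in every DMSO embryo, while HERC6, USP18 and EIF2AK2 lie higher in both cell16_LY embryos than in both LY_DMSO embryos. The dashed line separates the experiments, which were normalized apart.

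The other 24 members tested in this comparison were not called. DHX58, an RNA helicase that regulates the RIG-I sensors, measured 16.3, 10.9 and 31.7 normalized counts in DMSO and 5.45, 8.71 and 5.18 in LY10, apart but with a log2 fold change of -1.38 ± 0.78 (adjusted p = 0.321, limma). IRF7, which amplifies interferon transcription, measured 143.6, 125.3 and 145.5 in DMSO and 83.2, 43.6 and 110.1 in LY10, also apart (-0.89 ± 0.40, adjusted p = 0.229, limma). ADAR, which edits double-stranded RNA, measured 101.7, 125.3 and 111.6 in DMSO and 163.6, 236.6 and 155.4 in LY10 (0.69 ± 0.31, adjusted p = 0.226, limma). These groups did not overlap, though each gene missed the threshold.

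Members with overlapping groups included STAT2, HERC5 and EPSTI1. STAT2, part of the interferon-activated complex with IRF9, measured 265.5, 166.1 and 137.8 normalized counts in DMSO and 178.6, 138.1 and 221.4 in LY10 (log2 fold change -0.05 ± 0.35). HERC5, the main ISG15 ligase, measured 276.4, 86.5 and 82.1 in DMSO and 117.3, 391.5 and 103.6 in LY10 (0.42 ± 0.63). EPSTI1, an interferon-induced protein of macrophage and epithelial cells, measured 182.4, 92.5 and 40.5 in DMSO and 42.3, 97.9 and 63.4 in LY10. In all 3 the spread within a group exceeded the difference between groups.

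IRF1, a factor that drives antiviral genes also without interferon, measured 86.2, 0 and 12.0 normalized counts in DMSO and 36.8, 77.8 and 115.2 in LY10. PARP14, a mono-ADP-ribosyltransferase, measured 209.6, 250.7 and 105.0 in DMSO and 156.8, 146.8 and 227.9 in LY10. IFIH1, the long-RNA sensor MDA5, measured 17.1, 28.8 and 21.9 in DMSO and 5.45, 14.7 and 32.4 in LY10. None of these was called, and the groups overlapped for each.

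DMSO replicate 3 stood apart in this set. It was the highest of the 6 libraries for 21 of the 41 members, and its members summed to 206.1 FPKM, against 87.8 and 76.3 in the other DMSO embryos and 61.0, 69.4 and 70.5 in LY10. IFI6, a mitochondrial and endoplasmic reticulum protein with antiviral activity, measured 1.55, 1.99 and 645.5 normalized counts in DMSO and 1.36, 0 and 0 in LY10. IFI44L, a regulator of interferon responses, measured 0.776, 0 and 219.9 in DMSO and 0 in each LY10 embryo. IFI27 measured 0, 0 and 149.9 in DMSO and 0 in each LY10 embryo.

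The same embryo carried the ubiquitin-like protein ISG15 itself at 106.1 normalized counts, against 0.776 and 1.99 in the other DMSO embryos and 0 to 4.09 in LY10. IFI44, 9154 bases from IFI44L on the genome, reached 65.6 there, against 0 and 11.9 in the other DMSO embryos and 0 to 2.59 in LY10. OAS1Y, a 2',5'-oligoadenylate synthetase, and IFITM1, a membrane restriction factor, are no members but reached 13.0 and 35.5 FPKM in this embryo, beside at most 0.398 FPKM in the other DMSO embryos. IFNT3, 1 of the interferon tau genes, measured 19.3, 10.4 and 277.1 FPKM in DMSO and 7.96, 11.6 and 38.4 FPKM in LY10. High interferon-stimulated genes and a high interferon tau gene thus occurred in the same DMSO embryo.

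Fibroblast markers (6 genes, COL3A1 among them) summed to 24.4, 23.9 and 90.6 FPKM in DMSO and to 6.09, 8.56 and 11.7 FPKM in LY10, with COL3A1 at 0 reads in LY10 replicates 1 and 3. Epiblast markers summed to 213.0 to 318.3 FPKM in DMSO and 390.4 to 770.4 in LY10, so the sums of both lists also separated the groups. Of the epiblast markers, POU5F1 was called higher (log2 fold change 1.23). DNMT3B, NANOG and SOX2 were higher and SALL4, LIN28A and LIN28B lower, without a call. Trophectoderm markers summed to 3070.9, 2598.6 and 6496.2 FPKM in DMSO and 9552.2, 3680.7 and 5126.4 in LY10. Hypoblast markers summed to 69.6 to 111.0 FPKM in DMSO and 71.0 to 99.1 in LY10, so the sums of these lists overlapped between groups. Single markers within them did separate the groups. The hypoblast markers HNF4A and PDGFRA were called higher (log2 fold changes 3.31 and 3.74) and the trophectoderm marker ELF3 lower (-1.53). GATA4 (-1.03) and GATA6 (-0.73) lay lower in every LY10 embryo without a call, and the other tested markers of both lists overlapped. Blood and immune markers (7 genes) summed to 3.08 to 4.99 FPKM in DMSO and 2.42 to 4.80 in LY10, with PTPRC at 0 reads in all but DMSO replicate 3. The Y-linked DDX3Y had reads in DMSO replicate 3 (1559) and LY10 replicate 1 (1224) and in no other embryo of the experiment. The part of these differences in the interferon-stimulated genes was not tested.

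Without DMSO replicate 3, HERC6, MX1, IFIT5 and IFI35 remained called and PARP9 was added, among 22 members tested. These were 22.7% of the members, beside 24.2% of all genes called in the same fit. The median log2 fold change of the members was then -0.61. HERC6 (-5.45, adjusted p = 0.0156) and MX1 (-4.83, adjusted p = 0.0347) then passed adjustment by limma, as did 1963 of all 14252 genes tested (13.8%). HERC6 and MX1 were thus lower in LY10 with or without the embryo that stood apart. Both had entered the tests through DMSO alone, and the members' own values had singled out that embryo. Passing adjustment here is therefore no separate support.

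**Figure D3:**
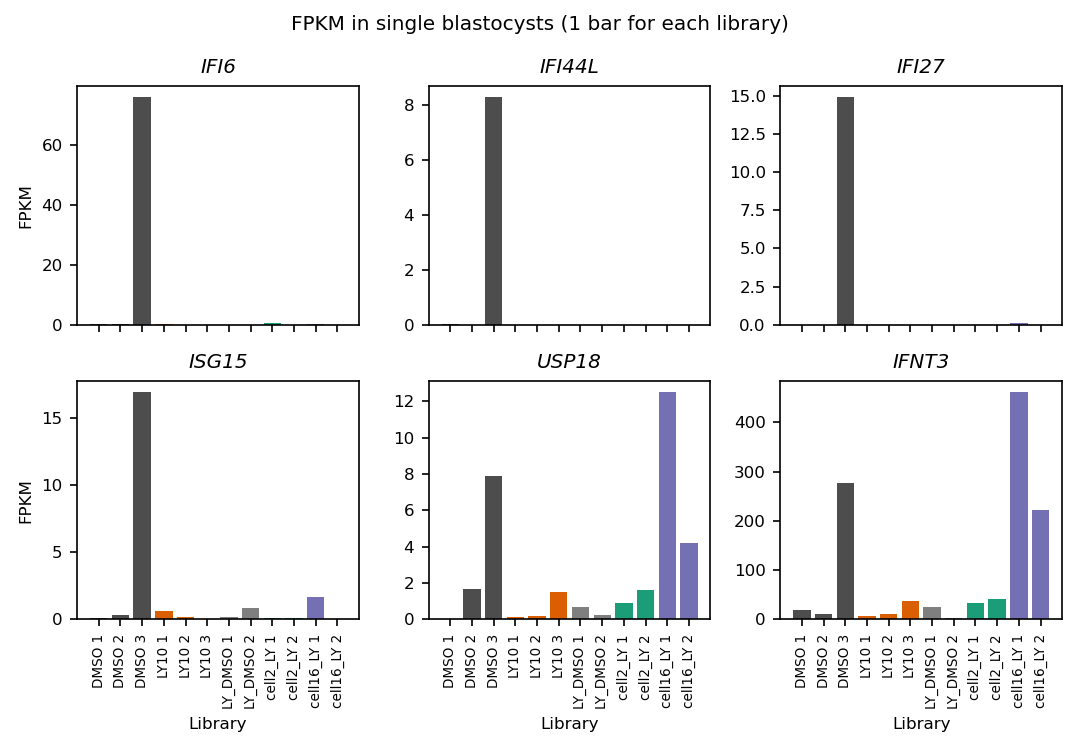
Bars give the FPKM (vertical axis, linear from 0) of 5 members and of the interferon tau gene IFNT3 in each of the 12 blastocyst libraries (horizontal axis). IFI6, IFI44L, IFI27 and ISG15 are high in DMSO replicate 3 alone, whereas USP18 and IFNT3 are high there and in both cell16_LY embryos.

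In the second experiment, between cell16_LY and LY_DMSO, HERC6, USP18 and EIF2AK2 rose and IRF1 fell. Of 24 members tested, 3 were called higher and 1 lower (12.5% and 4.17%), beside 3.25% and 1.97% of all 14529 tested genes. The median log2 fold change of the members was 0.20, with 14 above 0, beside -0.01 over all genes. HERC6 and USP18 averaged at least 10 normalized counts in cell16_LY but not in LY_DMSO. HERC6 reached that level in no other group and so had to lie higher in cell16_LY. These counts and the median thus describe the tested members only. At an adjusted p under 0.05 (limma) 0% of all genes passed, 1107 genes and 4 members having an unadjusted p under 0.05.

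USP18, the protease that removes ISG15 and also dampens the interferon receptor, measured 10.2 and 3.70 normalized counts in LY_DMSO and 183.1 and 61.8 in cell16_LY. Both cell16_LY embryos were above both controls, and the log2 fold change was 3.89 ± 0.85 (adjusted p = 0.396, limma). It stayed called with any library left out (3.11 to 4.67). In the first experiment USP18 measured 0, 16.9 and 81.0 in DMSO and 1.36, 2.01 and 15.5 in LY10, with overlap (-1.21 ± 1.66).

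EIF2AK2 measured 72.3 and 68.4 normalized counts in LY_DMSO, 97.2 and 96.7 in cell2_LY, and 264.9 and 220.4 in cell16_LY. The replicates of each group lay close together and the groups stood in that order. The log2 fold change of cell16_LY against LY_DMSO was 1.77 ± 0.38 (adjusted p = 0.396, limma), and stayed called with any library left out (1.63 to 1.90).

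HERC6 measured 0 and 6.47 normalized counts in LY_DMSO, 6.55 and 6.90 in cell2_LY, and 71.6 and 46.7 in cell16_LY. The vehicle controls of this experiment were thus as low as cell2_LY, unlike the DMSO embryos of the first experiment, which lay between 60.7 and 101.7 on their own scale. On the FPKM scale HERC6 measured 1.88, 1.51 and 2.54 in DMSO but 0 and 0.113 in LY_DMSO, tables normalized apart and not tested against each other. Against LY_DMSO the log2 fold change of cell16_LY was 4.43 ± 1.19 (adjusted p = 0.521, limma), 117 reads standing against 7 (ratio 18.7, 8.79 to 47.5). The call was lost without cell16_LY replicate 1 (4.12).

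MX1 measured 17.6 and 6.47 normalized counts in LY_DMSO, 20.7 and 43.4 in cell2_LY, and 189.6 and 15.2 in cell16_LY. It was high in cell16_LY replicate 1 alone, and was not called (log2 fold change 2.24 ± 1.15 against LY_DMSO, adjusted p = 0.705, limma). IRF1 measured 165.9 and 97.0 in LY_DMSO, 40.4 and 40.4 in cell2_LY, and 59.5 and 42.0 in cell16_LY. It was lower in both LY groups, with log2 fold changes of -1.33 ± 0.51 in cell16_LY (adjusted p = 0.62, limma) and -1.63 ± 0.51 in cell2_LY (adjusted p = 0.114). The first call was lost without LY_DMSO replicate 1 (-0.94) or without cell16_LY replicate 1 (-1.57) or 2 (-1.08), and the second without LY_DMSO replicate 1 (-1.24).

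Between cell2_LY and LY_DMSO, IRF1, PARP14 and IFI35 fell and no member rose. These were 3 of 24 members (12.5%), beside 8.34% of all genes called lower and 8.71% called higher, a share of lower calls near that of all genes. The median log2 fold change was -0.07, beside 0.00 over all genes, with 11 members above 0. At an adjusted p under 0.05 (limma) 0.0138% of all genes passed and no member did, and 3 members had an unadjusted p under 0.05.

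PARP14 measured 276.1 and 322.5 normalized counts in LY_DMSO, 60.1 and 150.9 in cell2_LY, and 209.2 and 393.0 in cell16_LY. The cell2_LY embryos were below both controls (log2 fold change -1.64 ± 0.51, adjusted p = 0.112, limma). IFI35 measured 230.7 and 295.7 in LY_DMSO, 49.1 and 171.6 in cell2_LY, and 224.0 and 138.8 in cell16_LY (cell2_LY against LY_DMSO -1.49 ± 0.58, adjusted p = 0.166, limma). Both calls rested on cell2_LY replicate 1, the library whose size in the authors' FPKM exceeded its reads on genes most. Without it PARP14 (-0.98) and IFI35 (-0.60) were not called, and without cell2_LY replicate 2 they measured -2.29 and -2.39 (adjusted p = 0.0485 and 0.0439, limma, 1 embryo left and assumed to vary like the others). IFI35 also lost its call without LY_DMSO replicate 1 (-1.67) or 2 (-1.32).

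Set against each other, embryos treated from the 16-cell stage had higher levels of HERC6, USP18, EIF2AK2, IFIH1, IFIT5 and PARP14 than embryos treated from the 2-cell stage. Of 24 members 6 were called higher (25%) and none lower, beside 5.58% of all genes higher and 5.77% lower. The members' median log2 fold change was 0.42, beside 0.04 over all genes, and 18 of 24 were above 0. HERC6 and IFIT5 averaged at least 10 normalized counts in cell16_LY but not in cell2_LY. Both had to lie higher in cell16_LY to enter the tests, so these counts and the median describe the tested members only. At an adjusted p under 0.05 (limma) 0% of all genes passed, 2596 genes and 6 members having an unadjusted p under 0.05, and the smallest adjusted p of a member was 0.193.

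IFIH1 measured 8.34 and 32.3 normalized counts in LY_DMSO, 4.37 and 16.8 in cell2_LY, and 61.4 and 38.5 in cell16_LY. IFIT5 measured 3.71 and 26.8 in LY_DMSO, 3.28 and 0 in cell2_LY, and 23.2 and 39.7 in cell16_LY. In both genes the LY_DMSO embryos spanned much of the range between the LY groups. The log2 fold changes of cell16_LY against cell2_LY were 2.35 ± 0.96 for IFIH1 (adjusted p = 0.258, limma) and 3.92 ± 1.31 for IFIT5 (adjusted p = 0.207, limma). IFIT5 rested on 59 reads against 3, a ratio of 19.6 with an interval of 6.40 to 97.9.

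For the other 4 the log2 fold changes were 2.93 ± 1.19 for HERC6, 2.53 ± 0.85 for USP18, 1.31 ± 0.38 for EIF2AK2 and 1.58 ± 0.51 for PARP14. These calls rested on few embryos. Only PARP14 was called without cell16_LY replicate 1, where HERC6 measured 2.62, USP18 1.75, EIF2AK2 1.18, IFIH1 2.02 and IFIT5 4.30. Without cell16_LY replicate 2 the called members were EIF2AK2, USP18 and MX1, and PARP14 (1.13), HERC6 (3.23), IFIH1 (2.67) and IFIT5 (3.55) were not called. Without cell2_LY replicate 1 the called members were EIF2AK2, IFIT5 and HERC5, and PARP14 (0.92), USP18 (2.12), IFIH1 (1.48) and HERC6 (2.90) were not called, and without cell2_LY replicate 2 IFIT5 (2.88) and HERC6 (2.96) lost their calls.

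Of 14 interferon ligand genes matched in the second experiment, 8 to 10 had 0 reads in each library, and 4 were tested. Of these 4, 3 rose in cell16_LY and 2 in cell2_LY against LY_DMSO, where 3.25% and 8.71% of all genes were called higher. IFNT3 measured 25.3 and 2.57 FPKM in LY_DMSO, 33.6 and 41.1 in cell2_LY, and 461.7 and 223.1 in cell16_LY. Its log2 fold change was 5.30 ± 0.87 for cell16_LY against LY_DMSO (adjusted p = 0.206, limma) and 3.11 ± 0.87 against cell2_LY (adjusted p = 0.193). It was called in cell2_LY against LY_DMSO as well (2.19 ± 0.87, adjusted p = 0.17, limma), where USP18, HERC6 and EIF2AK2 were not. IFNT2, measuring 0.833 and 0.646 FPKM in LY_DMSO and 12.3 and 5.24 in cell16_LY, was called too (3.36 ± 0.65, adjusted p = 0.341, limma). IFNE, interferon epsilon, was called against LY_DMSO in both cell2_LY (3.09 ± 1.22) and cell16_LY (3.10 ± 1.22). The gene listed as IFN-TAU measured 1.73 and 0.480 FPKM in LY_DMSO, 1.48 and 1.64 in cell2_LY, and 0.773 and 0.364 in cell16_LY, with log2 fold changes in cell16_LY of -0.69 ± 1.08 against LY_DMSO and -1.37 ± 1.08 against cell2_LY, neither called. Interferon tau genes are near-identical copies, so how reads divided between them is uncertain, and the calls of IFNT2 and IFNT3 may not be independent.

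Across both experiments the embryos with the highest USP18 (7.89 FPKM in DMSO replicate 3, 12.5 and 4.21 in cell16_LY) were also those with the highest IFNT3. HERC6 did not share this order, since DMSO replicates 1 and 2 measured 1.88 and 1.51 FPKM of HERC6 beside 19.3 and 10.4 FPKM of IFNT3. Nor did ISG15, IFI6, IFI27, IFI44 and IFI44L, which were high in DMSO replicate 3. They averaged 0.825, 0.114, 0.0645, 0.0480 and 0 FPKM in cell16_LY. The experiments were normalized apart and not tested against each other. Trophectoderm markers (8 genes) summed to 3948.5 and 4751.7 FPKM in LY_DMSO, 5049.6 and 5079.8 in cell16_LY, and 4999.5 and 7483.5 in cell2_LY. Among them CDX2, ELF3 and GATA2 were called higher in cell2_LY than in LY_DMSO (log2 fold changes 2.78, 2.68 and 1.99) and lower in cell16_LY than in cell2_LY (-1.84, -1.86 and -1.94). Fibroblast markers summed to 11.8 and 17.6 FPKM in LY_DMSO, 10.9 and 15.5 in cell2_LY, and 11.1 and 9.72 in cell16_LY, with COL3A1 at 0 in the LY_DMSO and cell16_LY embryos. Reads of the Y-linked DDX3Y and the X-linked XIST occurred together in cell2_LY replicate 1 (675 and 2869) and LY_DMSO replicate 1 (1705 and 2631). In cell2_LY replicate 2 and cell16_LY replicate 2, DDX3Y had 1842 and 1180 reads and XIST 48 and 319. LY_DMSO replicate 2 and cell16_LY replicate 1 held XIST (5564 and 2274) and no DDX3Y. The origin of the joint reads was not tested. Maternal oocyte markers (6 genes) summed to 4.05 and 3.86 FPKM in LY_DMSO and 0.974 to 3.13 in the LY groups, and the part of these markers in the members' levels was not tested.

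**Figure D4:**
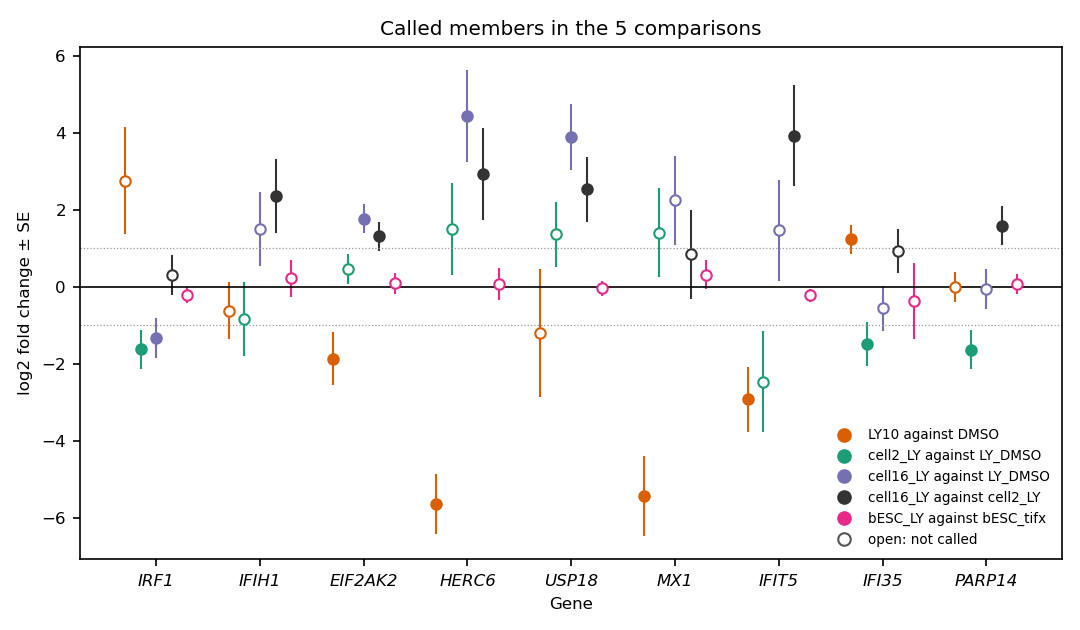
Points give the log2 fold change (vertical axis) with bars of 1 SE for each of the 9 members called in at least 1 comparison (horizontal axis), in each comparison where the gene was tested, filled where called. HERC6 lies at -5.65 for LY10 against DMSO and at 4.43 for cell16_LY against LY_DMSO, and the bESC points lie near 0.

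In bESCs, LY left no member called. By FPKM, in tables normalized apart and not tested against each other, IRF3, JAK1, ADAR and IFNAR1 averaged 34.1, 32.6, 22.8 and 15.5 in bESC_tifx, and IFNAR2 0.0127. The log2 fold changes of the 33 tested members ran from -0.72 to 0.76 with a median of 0.00, 17 being above 0 and 16 below, beside a median of -0.01 over all 16012 genes. Of all genes 0.0375% were called lower, 0.0375% higher and 0% at an adjusted p under 0.05 (limma), with 16 genes and 0 members at an unadjusted p under 0.05.

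HERC6 measured 324.6 and 185.0 normalized counts in bESC_tifx and 320.7 and 207.6 in bESC_LY. The difference was 0.07 ± 0.41 (SE) on the log2 scale. MX1 measured 360.6 and 253.0 in bESC_tifx and 494.4 and 282.2 in bESC_LY (log2 fold change 0.31, 95% interval -0.69 to 1.31). USP18 measured 471.9 and 561.6 in bESC_tifx and 510.2 and 491.7 in bESC_LY (-0.04, interval -0.56 to 0.49).

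The bESC replicates differed more by number than by treatment for several members. IRF3 measured 44.4 and 23.8 FPKM in bESC_tifx replicates 2 and 3 and 47.9 and 28.2 in bESC_LY replicates 2 and 3. EPSTI1 measured 7.38 and 3.28 FPKM in bESC_tifx and 10.4 and 3.65 in bESC_LY in the same order. IRF7 measured 15.2 and 9.84 FPKM in bESC_tifx and 17.0 and 10.7 in bESC_LY. In each case replicate 2 was above replicate 3 in both groups. The trophectoderm marker CDX2 also separated the numbers, at 0.368 and 13.7 FPKM in bESC_tifx replicates 2 and 3 and 0.243 and 15.2 in bESC_LY replicates 2 and 3, and its part in the members' levels was not tested.

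ADAR measured 23.6 and 22.0 FPKM in bESC_tifx and 24.2 and 21.7 in bESC_LY (log2 fold change 0.00, interval -0.38 to 0.38). IFNAR1 measured 15.1 and 15.9 FPKM in bESC_tifx and 14.5 and 17.2 in bESC_LY (0.03, interval -0.41 to 0.46). For both genes the treated and control cells overlapped. JAK1 measured 39.6 and 25.7 FPKM in bESC_tifx and 36.9 and 27.6 in bESC_LY (0.00, interval -0.74 to 0.74). IFIT5 measured 11.9 and 12.1 FPKM in bESC_tifx and 9.55 and 11.2 in bESC_LY (-0.22, interval -0.66 to 0.23). These intervals come from the fit that did not pair libraries by replicate number. The interval lay within a log2 change of 1 in either direction for 14 of the 33 members. For the other members this fit does not limit the change that closely.

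EIF2AK2 measured 3.63 and 5.12 FPKM in bESC_tifx and 4.25 and 4.97 in bESC_LY. IRF1 measured 436.9 and 373.8 normalized counts in bESC_tifx and 333.4 and 361.6 in bESC_LY, where the groups stood apart but the log2 fold change was only -0.22 ± 0.21. PARP14 measured 1.77 and 2.32 FPKM in bESC_tifx and 1.86 and 2.41 in bESC_LY. These genes, called in blastocysts, were not called in bESCs. IFIH1 measured 0.264 and 0.334 FPKM in bESC_tifx and 0.293 and 0.412 in bESC_LY. IFI6 measured 1.26 and 3.11 in bESC_tifx and 1.37 and 4.60 in bESC_LY. HERC5 was low at 0.238 to 0.462 FPKM, and IFI35, at 0.167 and 0.388 in bESC_tifx and 0.0857 and 0.418 in bESC_LY, lay under every blastocyst, none of which measured below 2.73. The gene models behind these FPKM differ, IFI35 having a length of 2022 bases in the bESC data and 1181 in the blastocyst data.

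Several members were near the limit of detection in the blastocysts. OAS2, an oligoadenylate synthetase, had at most 1.34 normalized counts in a blastocyst and 2.12 in a bESC library, RSAD2 (viperin) at most 9.85 and 0.957, and SAMD9 at most 14.2 and 6.18. A count of 0 allows up to 3 reads, which is at most 4.09, 3.5 and 3.18 normalized counts in a library of the respective tables. IFI44 and IFI44L, present in DMSO replicate 3, had 0 to 0.957 normalized counts in the bESCs. The remaining members below the testing limit in the blastocysts of both experiments were IFIT2, IFIT3, IFNAR2, IRF2, MX2, SP110, TRIM25 and XAF1, none of which exceeded 16.7 normalized counts in a blastocyst.

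Several members lie next to each other on a chromosome. Positions are those given for the blastocysts, and 40 of 41 equal those of the RefSeq annotation of assembly ARS-UCD2.0. The bESC data used Ensembl gene models, with other positions. HERC5 (chr6:36257276-36302471) and HERC6 (chr6:36309325-36366769) lie 6853 bases apart on the minus strand, and in LY10 HERC6 fell while HERC5 overlapped between groups. MX2 (chr1:141621179-141656965) lies 11338 bases from MX1 (chr1:141668304-141706499) and had 0 to 10.9 normalized counts where MX1 reached 440.9. IFIT5 (chr26:11081800-11091762) lies 27078 bases from IFIT3, which had at most 4.02 normalized counts in any blastocyst.

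PARP9 and DTX3L, which form a complex in the antiviral response, overlap by 143 bases on opposite strands of chromosome 1, so without a stated strand setting reads in the overlap cannot be assigned. PARP9 measured 174.7, 224.8 and 58.0 normalized counts in DMSO and 136.4, 20.8 and 25.9 in LY10. DTX3L measured 26.4, 135.3 and 58.0 in DMSO and 28.6, 35.5 and 10.4 in LY10. Both had negative log2 fold changes (-1.62 ± 0.77 and -1.39 ± 0.71) without a call, and their groups overlapped.

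Other genes of the pathway that are no members were mostly not called in LY10 against DMSO, with 2 of 53 higher and 3 lower. These were 3.77% and 5.66%, beside 6.2% and 8.51% of all tested genes. STAT3, a STAT of cytokine signaling, rose from 163.8, 69.6 and 101.7 to 219.5, 818.5 and 700.5 normalized counts (log2 fold change 2.24 ± 0.53, adjusted p = 0.0818, limma). MOV10, an RNA helicase with antiviral activity, rose by 1.30 ± 0.23 on the log2 scale. TLR7, the endosomal sensor of single-stranded RNA, fell from 31.8, 52.7 and 4.38 to 1.36, 0 and 0, 98 reads against 1 (ratio 91.6, 16.1 to 3653.7), and GBP4 fell by 1.99 ± 0.83 with overlapping groups.

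In cell16_LY against LY_DMSO 6 of 54 such genes were called higher and 2 lower (11.1% and 3.7%, beside 3.25% and 1.97% of all genes). In cell16_LY against cell2_LY 4 and 1 were called (7.41% and 1.85%, beside 5.58% and 5.77%). In cell2_LY against LY_DMSO 9 and 3 were called (16.7% and 5.56%, beside 8.71% and 8.34%). In the bESCs 0 of 62 entries were called, beside 0.0375% of all genes in either direction. SOCS1, which blocks the interferon receptor kinases, measured 42.6 and 46.2 normalized counts in LY_DMSO, 43.7 and 34.5 in cell2_LY, and 11.2 and 15.2 in cell16_LY. It was the lowest in both cell16_LY embryos, with log2 fold changes of -1.69 ± 0.64 against LY_DMSO (adjusted p = 0.62, limma) and -1.51 ± 0.64 against cell2_LY (adjusted p = 0.266). IRF5, an activator of inflammatory genes, rose in both LY groups against LY_DMSO, by 2.51 ± 0.42 in cell2_LY and 1.83 ± 0.42 in cell16_LY on the log2 scale.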

How the data were processed

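Single-embryo SMART-seq libraries and bESC libraries were analysed from the gene tables that the authors deposited, 1 table for each experiment, with values in FPKM. The study's methods name fastp, STAR and, as do the submitters' processing notes, HISAT2 v2.0.5, featureCounts 1.5.0-p3 and DESeq2 1.20.0. The notes alone also name StringTie 1.3.3b; the genome build and the strand setting are not given in the sources used here. The deposited FPKM values times gene length gave whole reads within 0.02 reads for 100% of values, with a library size for each library that was 0.949 to 1.07 times its reads on genes, and 1.23 times in cell2_LY replicate 1. Reads were divided by that size and multiplied by the geometric mean size of the table.

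For each table, log2(normalized count + 1) of genes with a mean of at least 10 was fitted with limma 3.58.1 (R 4.3.3; lmFit, eBayes with trend, Benjamini-Hochberg adjustment over all tested genes). In the second blastocyst table all 3 groups were fitted jointly. Scripts were tested on simulated data with known changes. Members, lists and tests were chosen with earlier results of these data known. Full values are given for each member called in a comparison and for the 5 of highest mean FPKM in the controls of each table. The rest are mostly given in ranges or counts. DHX58, STAT2, PARP9, DTX3L, IFI44L and IFI27 are given in full outside this rule, as examples. Other pathway genes are named where called, at most 8 in a comparison by smallest p, with examples chosen among them after their values were seen. IFN-TAU is named without a call. OAS1Y and IFITM1 were named after their values were seen. Promoter sequences were not analysed here. Alternatives were pseudocount, filter, normalization, FPKM scale, voom weights, a replicate block and each library left out. Intervals on reads cover counting error only.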

Additional observations from a re-analysis of the deposited data

Results flagged for a closer look

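HERC6, MX1, EIF2AK2 and IFI35 had log2 fold changes of opposite sign in the blastocyst experiments, with every embryo of the LY groups set against each other here on its own side of the vehicle control. These differences between experiments were not tested, and not every fold change was called: MX1 was called in LY10 alone, HERC6 and EIF2AK2 in LY10 and cell16_LY, and IFI35 in LY10 and cell2_LY. For HERC6 the log2 fold change of LY10 against DMSO lay -7.15 from that of cell2_LY against LY_DMSO and -10.08 from that of cell16_LY against LY_DMSO, the first fitted value being -5.65 and the last 4.43. The HERC6 values also differed between the vehicle controls, at 1.88, 1.51 and 2.54 FPKM in DMSO and 0 and 0.113 FPKM in LY_DMSO. For MX1 the distance to cell2_LY against LY_DMSO was -6.84, for EIF2AK2 the distances were -2.33 and -3.64, and for IFI35 they were 2.72 and 1.79.

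Between cell16_LY and cell2_LY, 6 of 24 members differed at an unadjusted p under 0.05 (limma), as did 2596 of all 14529 tested genes. The log2 differences, higher in cell16_LY, were 3.92 for IFIT5, 2.93 for HERC6, 2.53 for USP18, 2.35 for IFIH1, 1.58 for PARP14 and 1.31 for EIF2AK2. They rested on few embryos, and HERC6 and IFIT5 had to lie higher in cell16_LY to enter the tests. The smallest adjusted p of these by limma was 0.193, so none passed adjustment.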

How the results depend on the processing

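The direction of every called member held under all alternatives run, and HERC6, MX1 and IFI35 in LY10 against DMSO and USP18 in cell16_LY against LY_DMSO stayed called under each of them that gave a value. In LY10 against DMSO 5 members were called (17.2%, beside 14.7% of all genes), 8 with no filter on low counts (19.5%, beside 11.3%), and 5 to 8 with a library left out (17.2% to 27.6%, beside 9.64% to 24.2%, the last without DMSO replicate 3). The members' median log2 fold change there was -0.76 with TMM, -0.54 with quantile normalization, -0.40 on log2(FPKM + 1) and -0.63 with voom weights, and -0.99 to -0.61 with a library left out. EIF2AK2 lost its call under quantile normalization (-1.38) and voom (-1.84), and IFIT5 under voom (-2.81).

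For cell2_LY against LY_DMSO, leaving out a library gave a median of -0.30 to 0.22. It turned positive without cell2_LY replicate 1 (0.01), cell2_LY replicate 2 (0.12) or LY_DMSO replicate 2 (0.22). Reads on genes as library size gave a median of 0.16, moved the median of all genes from 0.00 to 0.24, and split all calls into 1842 higher and 674 lower, against 1265 and 1211. For cell16_LY against LY_DMSO, log2(FPKM + 1) left 1 member called, and leaving out a library gave 2 to 6 with a median of 0.04 to 0.63. For cell16_LY against cell2_LY, log2(FPKM + 1) left 2 (10.0%, beside 7.26% of all genes), and leaving out a library changed the calls as given above. Reads on genes as library size moved the median of all genes there from 0.04 to -0.18 and split all calls into 421 higher and 1261 lower, against 810 and 839. In the bESCs the median ranged from -0.12 to -0.01 with a library left out. Quantile normalization moved the median of all genes in LY10 from -0.05 to 0.07 and split all LY10 calls into 1074 higher and 879 lower, against 884 and 1213. The causes were not tested.

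With the replicate number as a block, 6, 3, 4, 6 and 0 members were called in LY10, cell2_LY, cell16_LY against LY_DMSO, cell16_LY against cell2_LY and the bESCs, beside 14.5%, 17.1%, 5.44%, 11.2% and 0.912% of all genes. Same-numbered libraries did not deviate together in the blastocysts (correlations -0.117, 0.168 and -0.0997 in the first table), so there the numbers are not shown to pair embryos. In the bESCs, where the correlation was 0.789 over 2 pairs, the replicate block raised the calls over all genes from 6 higher and 6 lower to 69 and 77. Exchanging the numbers of cell16_LY, chosen after seeing the data, gave 4 called members against LY_DMSO and 7 against cell2_LY. These were 16.7% and 29.2%, beside 6.39% and 13% of all genes. Only 2 or 3 embryos a group, and few reads for HERC6 and IFIT5, limit every value.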
